A study of Mus musculus with 18 samples.

Results

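The genes described here are 6 oocyte transcription factors of primordial follicles, Sohlh1, Sohlh2, Lhx8, Figla, Nobox and Taf4b. They were chosen by name from a fixed list of symbols, and all 6 were found among the 30172 gene symbols of the study. SOHLH1 and SOHLH2 are basic helix-loop-helix proteins of germ cells, FIGLA is a helix-loop-helix protein that primordial follicles need in order to form, and LHX8 and NOBOX are homeodomain proteins that oocytes need to pass through the first stages of follicle growth. TAF4B is a gonad-enriched subunit of TFIID, the general factor that positions RNA polymerase II at promoters. In the neonatal mouse ovary, these proteins are known for maintaining the oocytes of primordial follicles and for switching on genes of oocyte growth such as those of the zona pellucida.

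The study asked how hyperhomocysteinemia (HHcy) of the mother affects the ovaries of her daughters. All animals were wild-type C57BL/6J mice, and whole ovaries of F1 females were used at postnatal day 3 (Pd3), Pd7 and Pd21. The dams of the F1-HHcy groups ate a high-methionine diet with 3% methionine before mating and through gestation and lactation, the dams of the F1-Control groups ate normal chow, and the daughters themselves were not treated. Poly-A RNA was sequenced in 3 libraries for each of the 6 groups that diet and age made. By the labels, batch 1 held the ovaries of Pd3 and Pd7 and batch 2 those of Pd21, so diets were compared within a batch, and the age and batch of Pd21 cannot be told apart. Between 33630641 and 39399281 fragments were counted on genes per library. Levels are given in FPKM, in which the fragments on a gene are divided by its length and by the depth of the library, which allows levels of different genes to be compared per length.

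The median number of fragments per library was 5239 for Nobox, 1520 for Lhx8, 1250.5 for Taf4b, 760 for Sohlh1, 738 for Figla and 171 for Sohlh2. The lowest count of any of the 6 genes was 30 fragments, for Sohlh2 in F1-Control Pd21 replicate 2. In 5 of the 6 genes the highest group mean was that of F1-Control Pd3, the age at which the pool of primordial follicles has just formed. Taf4b differed from the label in this respect, since its highest mean was that of F1-HHcy Pd7. In whole ovaries, fewer oocytes and less RNA per oocyte cannot be told apart, and this holds for each difference given here.

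The libraries of some groups differed widely. The summed FPKM of the 6 genes was 287.6, 295.3 and 289.8 in replicates 1, 2 and 3 of F1-Control Pd3, but 100.4, 174.6 and 292.0 in those of F1-HHcy Pd3. In these sums, replicate 1 of F1-HHcy Pd3 was therefore far below the controls and replicate 3 lay among them. In F1-Control Pd7 the sums were 198.8, 272.4 and 140.8, with replicate 2 the highest and replicate 3 the lowest. In F1-HHcy Pd7 they were 58.1, 55.3 and 80.1, all below the lowest control of that day. At Pd21 the sums were 92.9, 70.9 and 69.3 in F1-Control and 98.8, 64.1 and 83.9 in F1-HHcy, and the groups overlapped. Results that rest on single libraries are given with and without them.

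**Figure D1:**
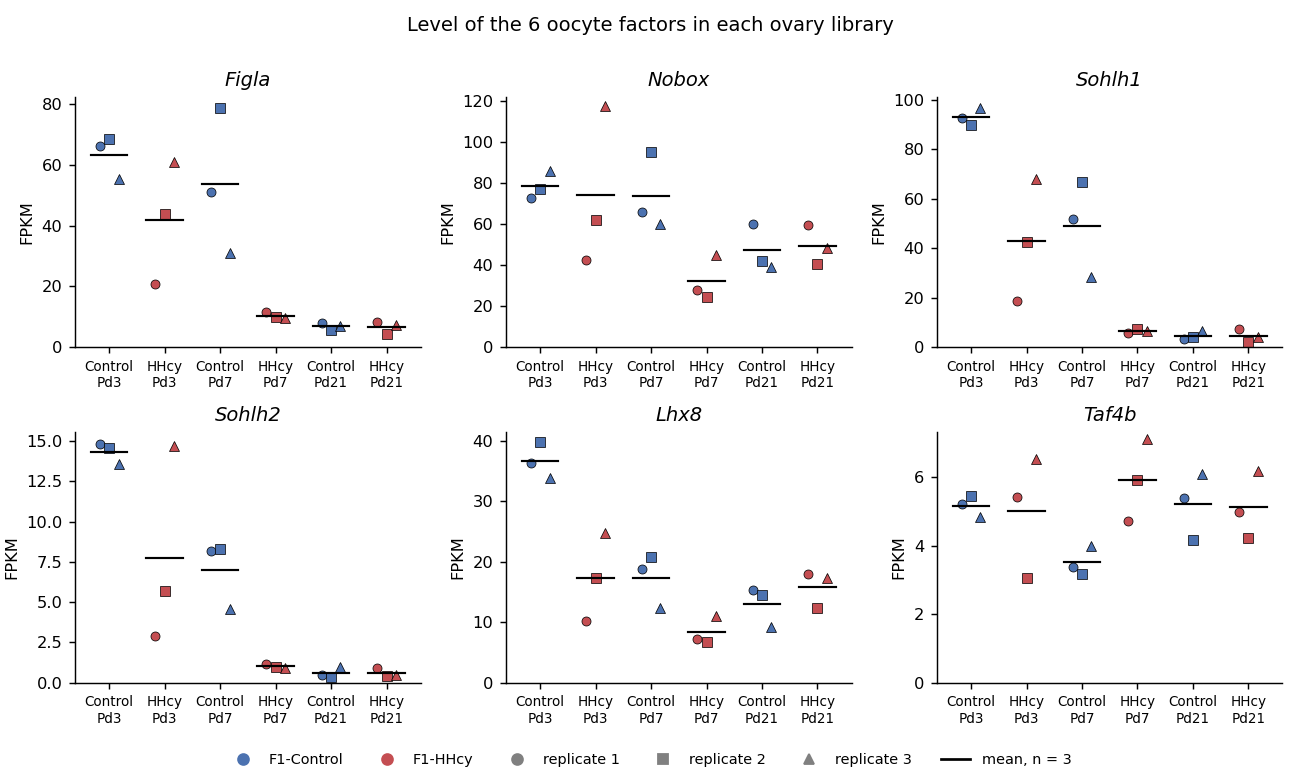
Level of each of the 6 genes in FPKM (vertical axes, each starting at 0) in the 18 ovary libraries, by diet and day (horizontal axes). Each point is a library, its shape gives the replicate and its colour the diet, and the black line is the mean of 3 libraries. At Pd7 the F1-HHcy points lie below all F1-Control points for Sohlh1, Sohlh2, Figla, Nobox and Lhx8 and above them for Taf4b.

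The diets were compared on each day with limma on log2(FPKM + 1), and a gene was called when its p, adjusted over all genes tested, was under 0.05. Adding 1 to each value makes differences of genes with low FPKM look smaller than they are. At Pd7, 5 of the 6 genes were called lower in F1-HHcy, against 5.98% of the 13299 genes tested. One gene of the 6, Taf4b, was called higher, against 5.88% of those genes. The median log2 difference of the 6 genes was -1.56, and that of all genes tested was -0.0015. For each of the 6 genes the 3 F1-HHcy values at Pd7 did not overlap with the 3 F1-Control values, which held for 39% of all genes tested on that day. An exact permutation test of 1 gene could not reach a p under 0.1 with 3 libraries against 3, so the calls rest on the variance that limma shares among genes.

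Sohlh1 encodes a germ cell helix-loop-helix protein that pairs with other proteins of its family to bind E-boxes, DNA motifs with the letters CANNTG. Its gene lies on the minus strand of chromosome 2. Its promoter is shown because its levels moved with those of Sohlh2 and Figla, and because E-boxes are the motifs that such proteins bind. Promoter sequences were taken from RefSeq (GRCm38.p6), in which 5 of the 6 genes were matched, and each is the 250 bases before the RefSeq start of the gene on its own strand, with E-boxes in capitals. The letters were searched on both strands, on which CANNTG reads alike. The Sohlh1 promoter, chr2:25847249-25847498 on the minus strand, held 5 E-boxes, of which 3 read CACGTG and 2 read CAGGTG.
Sohlh1: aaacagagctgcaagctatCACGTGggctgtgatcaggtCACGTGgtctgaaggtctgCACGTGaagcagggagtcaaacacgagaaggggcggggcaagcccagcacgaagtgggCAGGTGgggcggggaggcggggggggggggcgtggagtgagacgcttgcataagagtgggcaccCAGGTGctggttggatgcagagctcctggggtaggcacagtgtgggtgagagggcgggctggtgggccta
Of all 32851 promoters of this length, 66.2% held at least 1 CANNTG, 6.0% held CACGTG and 17.2% held CAGGTG on either strand. CACGTG and CAGGTG are themselves forms of CANNTG. A match is a description of the letters and was not tested for binding.

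Sohlh1 stood at 51.7, 66.6 and 28.6 FPKM in replicates 1, 2 and 3 of F1-Control Pd7, and at 5.61, 7.33 and 6.52 FPKM in those of F1-HHcy Pd7. The lowest control was thus far above the highest F1-HHcy library. On the log2(FPKM + 1) scale the gene was lower by a difference of -2.66 (SE 0.26, adjusted p = 0.00121). At Pd3, Sohlh1 stood at 92.5, 89.8 and 96.5 FPKM in F1-Control and at 18.7, 42.7 and 67.9 FPKM in F1-HHcy. The groups did not overlap at Pd3, but the F1-HHcy libraries were spread widely, and the log2 difference of -1.27 (SE 0.40) had an adjusted p = 0.122. At Pd21, the values were 3.55, 4.00 and 6.72 FPKM in F1-Control and 7.25, 2.16 and 4.14 FPKM in F1-HHcy. They overlapped at these low levels. The group means of Sohlh1 ran from 92.9 ± 3.36 FPKM (SD, n = 3) in F1-Control Pd3 through 48.9 ± 19.2 in F1-Control Pd7, 43.1 ± 24.6 in F1-HHcy Pd3 and 6.49 ± 0.858 in F1-HHcy Pd7 to 4.76 ± 1.71 in F1-Control Pd21 and 4.52 ± 2.56 in F1-HHcy Pd21. In this order the neighbours F1-Control Pd7 and F1-HHcy Pd3 overlapped, as did F1-HHcy Pd7 with F1-Control Pd21 and the Pd21 groups with each other, while the other neighbours did not. The Sohlh1 levels of F1-HHcy ovaries at Pd7 thus overlapped with those of control ovaries at Pd21.

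Sohlh2, a helix-loop-helix protein closely related to SOHLH1, was the least abundant of the 6. Its gene is on the plus strand of chromosome 3. It stood at 8.17, 8.28 and 4.56 FPKM in F1-Control Pd7 and at 1.19, 0.988 and 0.919 FPKM in F1-HHcy Pd7. Every F1-HHcy library was below every control, and the log2 difference was -1.94 (SE 0.21, adjusted p = 0.00138). At Pd3, its values were 14.8, 14.6 and 13.6 FPKM in F1-Control and 2.90, 5.67 and 14.7 FPKM in F1-HHcy. Replicate 3 of F1-HHcy Pd3 lay among the controls and the other replicates below them, with a log2 difference of -1.05 (SE 0.44, adjusted p = 0.215). At Pd21, the values were 0.503, 0.336 and 1.00 FPKM in F1-Control and 0.898, 0.409 and 0.497 FPKM in F1-HHcy, and the gene did not pass the filter of at least 1 FPKM in at least 3 libraries. The group means stood in the order F1-Control Pd3 (14.3 ± 0.680 FPKM), F1-HHcy Pd3 (7.77 ± 6.19), F1-Control Pd7 (7.00 ± 2.11), F1-HHcy Pd7 (1.03 ± 0.139), F1-Control Pd21 (0.614 ± 0.347) and F1-HHcy Pd21 (0.601 ± 0.261), and only F1-Control Pd7 and F1-HHcy Pd7 were neighbours without overlap. The Sohlh2 promoter held 1 CANNTG, none of the form CACGTG or CAGGTG, and its last bases lie in an exon of the GENCODE model, which starts earlier.

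Lhx8 encodes a LIM homeodomain protein that acts downstream of the SOHLH proteins in oocytes. It lies on the minus strand of chromosome 3. Its levels were 18.9, 20.8 and 12.3 FPKM in F1-Control Pd7 and 7.20, 6.70 and 11.1 FPKM in F1-HHcy Pd7. The F1-HHcy values were lower, and the gap between replicate 3 of each diet was small. The log2 difference was -0.97 (SE 0.23, adjusted p = 0.0263). At Pd3, Lhx8 stood at 36.3, 39.8 and 34.0 FPKM in F1-Control and at 10.2, 17.3 and 24.7 FPKM in F1-HHcy. All F1-HHcy values were again below the controls, and the log2 difference of -1.11 (SE 0.27) had the smallest adjusted p of the 6 genes on that day, adjusted p = 0.0711. At Pd21 its values were 15.3, 14.5 and 9.18 FPKM in F1-Control and 17.98, 12.3 and 17.4 FPKM in F1-HHcy, so that the groups overlapped. Unlike Sohlh1 and Sohlh2, Lhx8 had its lowest group mean at F1-HHcy Pd7 (8.34 ± 2.41 FPKM), after F1-Control Pd3 (36.7 ± 2.95), F1-HHcy Pd3 (17.4 ± 7.27), F1-Control Pd7 (17.3 ± 4.43), F1-HHcy Pd21 (15.9 ± 3.13) and F1-Control Pd21 (13.0 ± 3.34). F1-Control Pd3 and the next group did not overlap, and all later neighbours did. The 250 bases before the RefSeq start of Lhx8 held no CANNTG, and they held neither TGATTG, a motif bound by LHX8, nor TAATTA. The GENCODE model starts earlier and part of this stretch lies in its exon, so the stretch before that start was not searched in full.

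Figla encodes the helix-loop-helix factor of primordial follicle formation and of the zona pellucida genes. It lies on the plus strand of chromosome 6. Its promoter, chr6:86016941-86017190 on the plus strand, is shown beside that of Sohlh1 because the levels of both genes moved together, and it held 2 E-boxes in capitals, of which 1 reads CAGGTG.
Figla: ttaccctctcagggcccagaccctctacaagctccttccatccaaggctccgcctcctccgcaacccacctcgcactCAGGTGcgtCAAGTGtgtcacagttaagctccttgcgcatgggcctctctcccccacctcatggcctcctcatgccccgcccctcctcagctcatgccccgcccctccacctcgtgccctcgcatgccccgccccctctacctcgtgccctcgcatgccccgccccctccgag
The GENCODE M21 annotation of this build places the start of the gene earlier, so this stretch lies inside its gene model but in no exon.

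Figla stood at 50.9, 78.6 and 31.1 FPKM in F1-Control Pd7 and at 11.5, 9.90 and 9.55 FPKM in F1-HHcy Pd7. The controls differed widely among themselves and all lay above the F1-HHcy libraries. The log2 difference was -2.17 (SE 0.28, adjusted p = 0.00310). At Pd3, the values were 66.0, 68.3 and 55.3 FPKM in F1-Control and 20.8, 43.7 and 60.7 FPKM in F1-HHcy. Replicate 3 of F1-HHcy lay within the control range, and the log2 difference was -0.71 (SE 0.34, adjusted p = 0.267). At Pd21, they were 7.93, 5.69 and 7.00 FPKM in F1-Control and 8.32, 4.34 and 7.46 FPKM in F1-HHcy, and they overlapped. The group means were 63.2 ± 6.96 FPKM in F1-Control Pd3, 53.5 ± 23.9 in F1-Control Pd7, 41.7 ± 20.02 in F1-HHcy Pd3, 10.3 ± 1.06 in F1-HHcy Pd7, 6.87 ± 1.13 in F1-Control Pd21 and 6.71 ± 2.10 in F1-HHcy Pd21. The first 3 groups overlapped with one another in this order, F1-HHcy Pd7 overlapped with neither neighbour, and the Pd21 groups overlapped.

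Nobox encodes a homeodomain protein that oocytes need for the passage from primordial to growing follicles, and it had the highest mean level of the 6 genes, 59.2 FPKM over all libraries. It lies on the minus strand of chromosome 6. Its promoter, chr6:43309555-43309804 on the minus strand, is shown to set it beside those of Sohlh1 and Figla, and its 2 E-boxes in capitals read CAGGTG on one strand or the other.
Nobox: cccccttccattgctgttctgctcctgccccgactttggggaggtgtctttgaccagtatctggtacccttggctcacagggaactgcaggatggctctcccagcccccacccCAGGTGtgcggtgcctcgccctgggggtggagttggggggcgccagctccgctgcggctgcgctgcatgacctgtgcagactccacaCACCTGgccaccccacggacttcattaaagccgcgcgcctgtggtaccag
The letters TAATTG, which NOBOX binds, and TAATTA and TGATTG were found in none of the 5 matched promoters, against 7.2%, 4.8% and 12.7% of all promoters.

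Nobox stood at 65.8, 95.02 and 60.3 FPKM in F1-Control Pd7 and at 27.8, 24.4 and 44.8 FPKM in F1-HHcy Pd7. Replicate 3 was the highest of the F1-HHcy libraries and still below each control. The log2 difference was -1.18 (SE 0.24, adjusted p = 0.0153). At Pd3, the values were 72.8, 77.3 and 85.8 FPKM in F1-Control and 42.4, 62.1 and 117.5 FPKM in F1-HHcy. The F1-HHcy libraries lay on both sides of the controls, with a log2 difference of -0.21 (SE 0.32, adjusted p = 0.741). At Pd21, Nobox stood at 60.2, 42.2 and 39.4 FPKM in F1-Control and at 59.4, 40.6 and 48.2 FPKM in F1-HHcy, and the ranges overlapped. The group means ran from 78.6 ± 6.60 FPKM in F1-Control Pd3 through 74.0 ± 38.9 in F1-HHcy Pd3, 73.7 ± 18.7 in F1-Control Pd7, 49.4 ± 9.44 in F1-HHcy Pd21 and 47.2 ± 11.3 in F1-Control Pd21 to 32.4 ± 10.9 in F1-HHcy Pd7. Only F1-Control Pd7 and F1-HHcy Pd21 were neighbours without overlap.

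Taf4b lies on chromosome 18 and encodes a TFIID subunit that the ovary uses beside the general subunit TAF4. It stood at 3.39, 3.17 and 4.00 FPKM in F1-Control Pd7 and at 4.72, 5.92 and 7.12 FPKM in F1-HHcy Pd7. All 3 F1-HHcy values were above all controls, the opposite direction to the other 5 genes. The log2 difference was 0.60 (SE 0.17, adjusted p = 0.0492), just under the threshold. At Pd3, its values were 5.21, 5.46 and 4.83 FPKM in F1-Control and 5.43, 3.07 and 6.52 FPKM in F1-HHcy, and they overlapped (log2 difference -0.08, SE 0.22, adjusted p = 0.858). At Pd21, the values were 5.41, 4.16 and 6.08 FPKM in F1-Control and 4.97, 4.23 and 6.18 FPKM in F1-HHcy, which again overlapped. The group means spanned a narrow range, from 5.92 ± 1.198 FPKM in F1-HHcy Pd7 through 5.22 ± 0.973 in F1-Control Pd21, 5.17 ± 0.320 in F1-Control Pd3, 5.13 ± 0.984 in F1-HHcy Pd21 and 5.01 ± 1.76 in F1-HHcy Pd3 to 3.52 ± 0.430 in F1-Control Pd7, and every neighbour overlapped with the next.

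**Figure D2:**
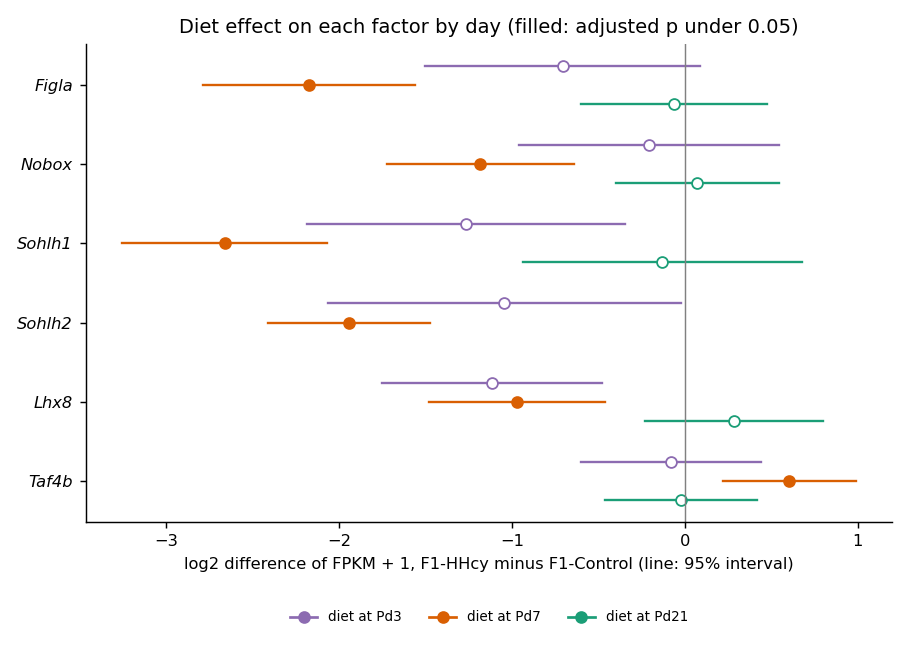
Log2 difference of FPKM + 1 between F1-HHcy and F1-Control (horizontal axis) for each of the 6 genes (vertical axis) on each day, with its 95% interval as a line and a filled point where the adjusted p was under 0.05. The filled points are those of Pd7, where Sohlh1 has the lowest value, -2.66, and Taf4b alone lies above 0, and Sohlh2 has no point at Pd21 because it did not pass the filter.

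The Pd7 calls differed in how far they rested on single libraries. Where a gene is said to be called only without a given library, the fits that left out 1 library are meant, and the fit with all libraries called it too. Sohlh1, Sohlh2 and Figla were called without any 1 of the 6 libraries, with an adjusted p of at most 0.0245. Without F1-HHcy Pd7 replicate 1, however, Sohlh2 passed the filter through the 3 control libraries alone. Nobox was not called without F1-Control Pd7 replicate 2 (adjusted p = 0.0623), F1-HHcy Pd7 replicate 1 (adjusted p = 0.0570) or F1-HHcy Pd7 replicate 2 (adjusted p = 0.0543). Lhx8 was not called without F1-Control Pd7 replicate 1 (adjusted p = 0.0696), F1-Control Pd7 replicate 2 (adjusted p = 0.0918), F1-HHcy Pd7 replicate 1 (adjusted p = 0.0919) or F1-HHcy Pd7 replicate 2 (adjusted p = 0.0924). Taf4b was called only when F1-Control Pd7 replicate 3 was the library left out. Without F1-Control Pd7 replicate 1 or 2 in turn it had adjusted p = 0.0931 and adjusted p = 0.105, and without F1-HHcy Pd7 replicate 1, 2 or 3 it had adjusted p = 0.0741, adjusted p = 0.153 and adjusted p = 0.120. The number of the 6 genes called was 3 without F1-Control Pd7 replicate 2, without F1-HHcy Pd7 replicate 1 or without F1-HHcy Pd7 replicate 2. In those fits 2.54%, 1.96% and 2.27% of all genes were called lower. Without F1-Control Pd7 replicate 3, all 6 were called, against 6.88% of all genes called lower and 7.21% called higher, and the log2 difference of Sohlh1 was -3.001. With no filter on low values, 2 of the 6 genes, Sohlh1 and Sohlh2, were called, against 0.105% of 27626 genes called lower. Taf4b was not called with a pseudocount of 0.1 (adjusted p = 0.0517) or with all 18 libraries in 1 model (adjusted p = 0.0630).

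At Pd3, limma called 0 of the 6 genes, against 3.07% of 13277 genes tested, and limma-voom on the recovered fragments also called 0. At an unadjusted p under 0.05, 3 of the 6 were lower in F1-HHcy, Lhx8, Sohlh1 and Sohlh2, against 12.6% of all genes tested. The median log2 difference of the 6 genes was -0.88, and that of all genes was -0.03. Without F1-HHcy Pd3 replicate 3, 5 of the 6 genes were called lower, against 12.3% of 13049 genes tested in that fit. They had adjusted p = 0.00645 for Sohlh1, adjusted p = 0.00277 for Sohlh2, adjusted p = 0.00343 for Lhx8, adjusted p = 0.0289 for Figla and adjusted p = 0.0345 for Nobox. The summed level of that replicate lay among the controls, as did its Figla and Sohlh2. Its Sohlh1 (67.9 FPKM) and Lhx8 (24.7 FPKM) were below all controls of Pd3, and its Nobox (117.5 FPKM) was above them. Without F1-HHcy Pd3 replicate 1, the lowest library, 0 were called, against 0.329% of 13060 genes called higher and 0.314% called lower. In that fit the log2 difference of Figla was -0.28 and that of Nobox was 0.12. With all 18 libraries in 1 model, Lhx8 was called at Pd3 (adjusted p = 0.0243), against 2.9% of all genes called lower.

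At Pd21, 5 of the 6 genes were tested, and limma called 0 of them, against 2.23% of 13350 genes. At an unadjusted p under 0.05 the count was also 0, against 6.85% of all genes, and limma-voom called 0. The log2 differences were -0.06 for Figla, 0.07 for Nobox, -0.13 for Sohlh1, 0.28 for Lhx8 and -0.02 for Taf4b, each with an adjusted p = 0.9996. The 95% intervals were widest for Sohlh1, from -0.94 to 0.68, and the interval of Figla, from -0.60 to 0.48, did not reach its log2 difference at Pd7.

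From Pd3 to Pd7, both in batch 1, the levels were compared within each diet. In F1-Control ovaries 3 of the 6 genes were called lower at Pd7, against 7.59% of 13336 genes tested. Lhx8 fell by 1.07 on the log2(FPKM + 1) scale (SE 0.18, adjusted p = 0.00750), Sohlh2 fell by 0.98 (SE 0.20, adjusted p = 0.0153) and Sohlh1 fell by 0.99 (SE 0.26, adjusted p = 0.0358). The difference was -0.45 for Taf4b (adjusted p = 0.0644), -0.33 for Figla (adjusted p = 0.454) and -0.12 for Nobox (adjusted p = 0.685). For Figla and Nobox, the Pd3 and Pd7 libraries of F1-Control overlapped. Without F1-Control Pd7 replicate 3, all 3 calls were kept and the difference of Sohlh1 was -0.65. Sohlh1 was not called without F1-Control Pd3 replicates 1, 2 or 3 in turn (adjusted p = 0.104, adjusted p = 0.106 and adjusted p = 0.105). Sohlh2 was not called without F1-Control Pd3 replicates 1 or 2 (adjusted p = 0.0640 and adjusted p = 0.0669), so that Lhx8 alone was called in those fits, against 1.43% and 1.6% of all genes called lower. Lhx8 was also the only one called with no filter on low values (375 of 27600 genes called lower) or with all 18 libraries in 1 model (6.08% called lower), and with median-ratio scaling Sohlh1 was not called (adjusted p = 0.0555).

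In F1-HHcy ovaries limma called 0 of the 6 genes between Pd3 and Pd7, against 0% of 13257 genes, and limma-voom called 0. At an unadjusted p under 0.05, 5 of the 6 were lower at Pd7, against 12.7% of all genes. The log2 differences were -2.39 for Sohlh1 (adjusted p = 0.0892), -1.87 for Sohlh2 (adjusted p = 0.0995), -1.79 for Figla (adjusted p = 0.0961), -1.09 for Nobox (adjusted p = 0.156), -0.93 for Lhx8 (adjusted p = 0.151) and 0.24 for Taf4b (adjusted p = 0.590). Without F1-HHcy Pd3 replicate 1, those 5 genes were called lower, against 4.71% of 13107 genes tested in that fit, with adjusted p = 0.00381 for Sohlh1 and for Figla, adjusted p = 0.0143 for Sohlh2, adjusted p = 0.0300 for Lhx8 and adjusted p = 0.0493 for Nobox. Without F1-HHcy Pd3 replicate 3, 0 were called, against 0 of all 13108 genes, with a difference of -1.98 for Sohlh1. With all 18 libraries in 1 model 4 were called, Sohlh1, Sohlh2, Figla and Nobox, against 3.18% of 14607 genes called lower.

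Whether the diet effect differed between days was put to a test of its own. Between Pd3 and Pd7, limma called 0 of the 6 genes, against 0.514% of 13998 genes, and limma-voom called 0. At an unadjusted p under 0.05 the count was 4 of 6, against 16.8% of all genes. The diet effect at Pd7 minus that at Pd3 was -1.47 for Figla (adjusted p = 0.178), -1.40 for Sohlh1 (adjusted p = 0.225), -0.97 for Nobox (adjusted p = 0.295), -0.90 for Sohlh2 (adjusted p = 0.4004), 0.14 for Lhx8 (adjusted p = 0.879) and 0.69 for Taf4b (adjusted p = 0.265). Without F1-HHcy Pd3 replicate 1, Figla (-1.89) and Sohlh1 (-1.89) were called, against 0.888% of 13966 genes called lower in that fit, each with adjusted p = 0.0398. The diet effect at Pd3 was thus not shown to differ from that at Pd7 with all libraries.

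Between Pd7 and Pd21, 3 of the 6 genes were called with a higher diet effect at Pd21, against 0.986% of 14607 genes tested. The difference of the diet effects was 2.53 for Sohlh1 (SE 0.56, adjusted p = 0.0145), 2.11 for Figla (SE 0.47, adjusted p = 0.0146) and 1.94 for Sohlh2 (SE 0.49, adjusted p = 0.0335). Sohlh2 did not pass the filter at Pd21 alone, with 30 to 92 fragments per library of that day, and passed it here through other days. Adding 1 makes differences at such low values look small, its Pd21 difference with no filter was -0.0024, and the value for Sohlh2 is therefore close to its Pd7 effect with the sign turned. With no filter it was not called (adjusted p = 0.0845). The difference was 1.25 for Lhx8 (adjusted p = 0.0881), 1.25 for Nobox (adjusted p = 0.119) and -0.63 for Taf4b (adjusted p = 0.246). Each diet effect lay within a batch, and age and batch cannot be told apart in their difference. With limma-voom, a tool added after seeing the data, 0 of the 6 were called, against 0.253% of all genes called higher. It gave adjusted p = 0.103 for Sohlh1, adjusted p = 0.0948 for Figla and adjusted p = 0.195 for Sohlh2. Sohlh1 was not called without F1-Control Pd7 replicate 2 (adjusted p = 0.0553) or F1-Control Pd21 replicate 1 (adjusted p = 0.0717), Figla was not called without F1-Control Pd21 replicate 3 (adjusted p = 0.0535), and Sohlh2 was not called in 10 of the 18 fits that left out a library. The number called was 1 without F1-Control Pd7 replicate 2, F1-Control Pd21 replicate 1 or F1-Control Pd21 replicate 3, and 5 without F1-HHcy Pd3 replicate 3. In those fits 0.363%, 0.306%, 0.264% and 1.73% of all genes were called higher.

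**Figure D3:**
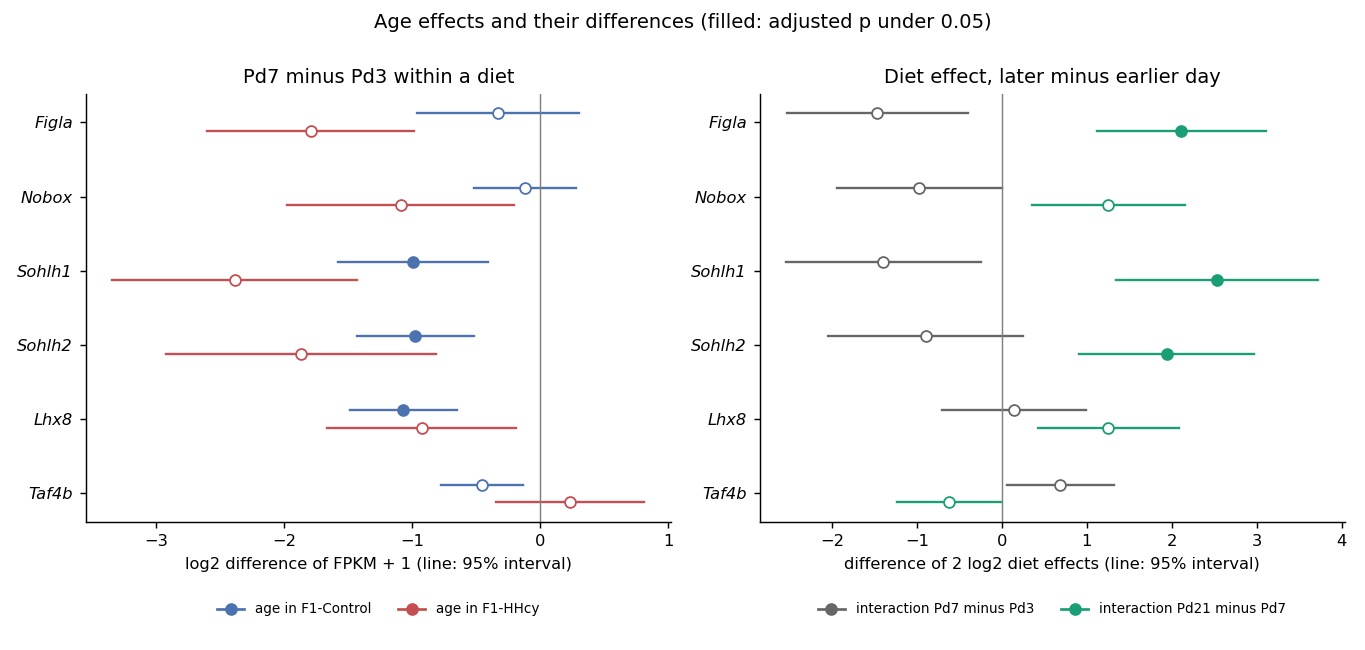
Left, log2 difference of FPKM + 1 between Pd7 and Pd3 within each diet, and right, the diet effect on a later day minus that on an earlier day, for each of the 6 genes, with 95% intervals as lines and filled points where the adjusted p was under 0.05. On the left the filled points are Sohlh1, Sohlh2 and Lhx8 in F1-Control, and on the right they are Figla, Sohlh1 and Sohlh2 for Pd21 minus Pd7.

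The 6 genes did not follow a single course. As a description over the 18 libraries, which fall into 6 groups of 3 and share the group and its batch, the Pearson correlation of log2(FPKM + 1) was 0.99 between Sohlh1 and Sohlh2 and 0.98 between Figla and Sohlh1, with Figla and Sohlh2 the least alike of these 3 genes. Nobox and Lhx8 had 0.85 with each other and between 0.69 and 0.77 with those 3 genes. Taf4b had values from -0.33 with Figla to -0.12 with Lhx8. Sohlh1, Sohlh2 and Figla thus formed a trio by level, and Taf4b stood by itself. Nobox and Lhx8 did not form a close pair. Lhx8 ranked 103 among the genes most like Nobox, and Nobox ranked 270 among those most like Lhx8.

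The genes most like each of the 6 were listed by the same measure among 14606 other genes. For Sohlh1 they were E330020D12Rik (0.99), Mov10l1, Smc1b, Sycp3 and Syce1, and for Sohlh2 they were Sycp3 (0.99), Piwil2, Map7d2, Smc1b and E330020D12Rik. For Figla they were Rhox1 (0.99), Syce1, Smc1b, Sohlh1 and Xlr4a. Smc1b stood in the lists of all 3 of these genes, and Syce1, Sycp3 and E330020D12Rik stood in 2 of the 3 each. For Lhx8 they were Asb8 (0.98), Anxa7, AU015836, Siah1b and Hmga1, and for Nobox they were Hsf2bp (0.94), Il34, Fetub, Pls1 and Pramel13. For Taf4b they were Paxip1 (0.77), Mark1, Gosr1, Foxj3 and Kif21a, with lower values than for any other of the 6. A correlation above 0.9 was found with 490 genes for Sohlh2, 455 for Sohlh1, 368 for Figla, 76 for Lhx8, 18 for Nobox and 0 for Taf4b.

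Ratios of genes within a library, chosen after their values were seen, describe how the balance among the 6 moved. The ratio of Nobox to Sohlh1 in FPKM was 0.787, 0.861 and 0.889 in F1-Control Pd3 and 2.27, 1.45 and 1.73 in F1-HHcy Pd3. It was 1.27, 1.43 and 2.11 in F1-Control Pd7 and 4.96, 3.33 and 6.88 in F1-HHcy Pd7. On both days every F1-HHcy library was above every control, including F1-HHcy Pd3 replicate 3, whose summed level lay among the controls. At Pd21 the ratio was between 5.86 and 16.9 in F1-Control and between 8.20 and 18.8 in F1-HHcy, so the diets overlapped. The ratio of Lhx8 to Sohlh1 was 1.3005 ± 0.396 (SD, n = 3) in F1-HHcy Pd7 and 0.369 ± 0.0600 in F1-Control Pd7, while at Pd3 its means were 0.438 ± 0.0946 and 0.396 ± 0.0459. In contrast, the ratio of Sohlh1 to Sohlh2 had group means between 6.19 and 8.55, and its libraries overlapped between the diets on each day. The ratio of Figla to Sohlh1 did separate the diets, with 0.714, 0.761 and 0.573 in F1-Control Pd3 and 1.12, 1.02 and 0.894 in F1-HHcy Pd3. At Pd7 it was 0.985, 1.18 and 1.09 in F1-Control and 2.05, 1.35 and 1.465 in F1-HHcy, and at Pd21 the diets overlapped. The ratio of Nobox to Lhx8 was 2.00, 1.94 and 2.53 in F1-Control Pd3 and 4.18, 3.58 and 4.76 in F1-HHcy Pd3. It did not overlap between the diets on that day, but it did at Pd7 and Pd21. As a share of the summed FPKM of the 6 genes, Sohlh1 made up 26.0%, 24.45% and 20.3% in F1-Control Pd7 and 9.67%, 13.3% and 8.14% in F1-HHcy Pd7. Nobox made up 33.1%, 34.9% and 42.8% in F1-Control Pd7 and 47.9%, 44.2% and 56.0% in F1-HHcy Pd7.

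The levels were also set against Ddx4, a helicase of all germ cells in the ovary. Ddx4 was 15.9 ± 2.59 FPKM in F1-Control Pd7 and 6.55 ± 0.606 in F1-HHcy Pd7. The ratio of Sohlh1 to Ddx4 was 3.20, 3.62 and 2.16 in F1-Control Pd7 and 0.820, 1.25 and 0.938 in F1-HHcy Pd7. The groups did not overlap, and the F1-HHcy ratios were below all those of the controls. The mean ratio of Figla to Ddx4 was 3.26 ± 0.967 in F1-Control Pd7 and 1.58 ± 0.182 in F1-HHcy Pd7, that of Sohlh2 was 0.434 ± 0.0817 and 0.158 ± 0.0225. For Nobox the means were 4.60 ± 0.549 and 4.90 ± 1.35, and for Lhx8 they were 1.08 ± 0.127 and 1.27 ± 0.292, and both overlapped between the diets. The ratio of Taf4b to Ddx4 was 0.210, 0.172 and 0.302 in F1-Control Pd7 and 0.690, 1.01 and 1.02 in F1-HHcy Pd7, without overlap. At Pd3 the picture differed. The ratio of Lhx8 to Ddx4 was 1.74, 1.82 and 1.65 in F1-Control Pd3 and 0.989, 1.08 and 1.505 in F1-HHcy Pd3, without overlap, while the ratios of the other 5 genes to Ddx4 overlapped between the diets. These ratios were not tested. They rest on Ddx4 alone, and other germ cell markers fell by other amounts at Pd7.

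**Figure D4:**
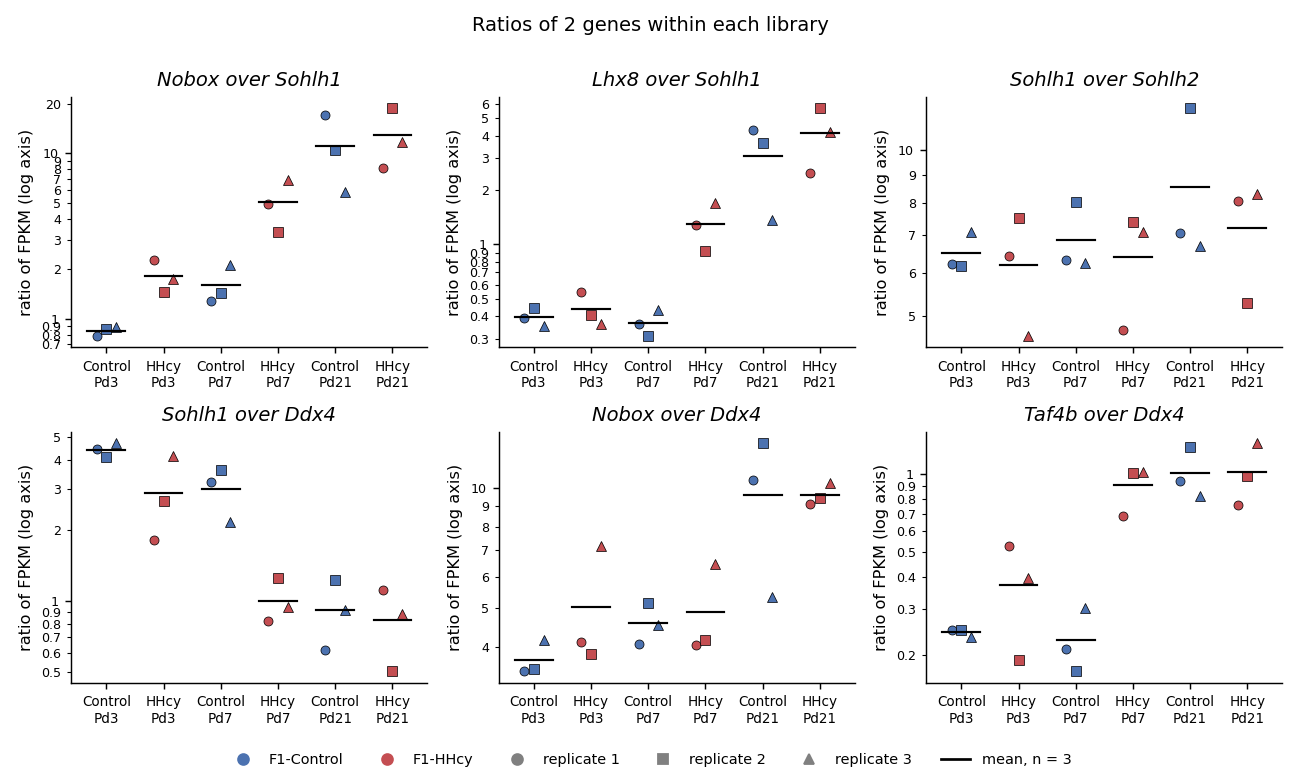
Ratio of the FPKM of 2 genes within each of the 18 libraries (vertical axes, logarithmic), by diet and day (horizontal axes). Points are libraries, shapes give the replicate, colours the diet, and black lines the means of 3 libraries. Nobox over Sohlh1 is above all controls in each F1-HHcy library of Pd3 and Pd7, while Sohlh1 over Sohlh2 overlaps between the diets.

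Markers of germ cells were set beside the 6 genes. Their summed FPKM was 839.1, 957.3 and 746.6 in F1-Control Pd3 and 385.8, 644.4 and 811.2 in F1-HHcy Pd3. It was 676.6, 942.8 and 419.8 in F1-Control Pd7 and 312.5, 271.2 and 255.5 in F1-HHcy Pd7. At Pd21 it was 291.6, 226.2 and 224.0 in F1-Control and 281.0, 230.0 and 296.1 in F1-HHcy. Dppa3 was the most abundant, and no marker of the list was at 0 in any library. At Pd7, 5 of the 6 germ cell markers were called lower, against 5.98% of all genes, with a median log2 difference of -1.03. Among them were Mael (-2.11, SE 0.27, adjusted p = 0.00312) and Ddx4 (-1.16, SE 0.16, adjusted p = 0.00382), which were called without any 1 library of that day. The others were Dppa3 (-1.16, adjusted p = 0.0316) and, named after their values were seen, Tdrd1 (-0.90, adjusted p = 0.00939) and Stk31 (-0.85, adjusted p = 0.0275). Tdrd1 was not called without F1-HHcy Pd7 replicate 1 (adjusted p = 0.0509). Dppa3 and Stk31 were called only when F1-Control Pd7 replicate 3 was left out, and without any other library their adjusted p was between 0.0530 and 0.0952. At Pd3, limma called 0 of 6, against 1.43% of all genes called lower. At an unadjusted p under 0.05, 4 were lower, against 12.6% of all genes, and the median of the 6 was -0.81. Mael thus fell further than Ddx4 at Pd7 and nearly as far as Figla (-2.17). Ratios to another germ cell marker could therefore differ from those to Ddx4, and they were not taken. The part of germ cell number in the levels of the 6 genes was not tested.

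Genes reported as targets of the 6 factors were called in both directions, and no test compared them with the factors. These targets include the zona pellucida genes and the growth factors Gdf9 and Bmp15 of the oocyte. At Pd3, 4 of 13 tested were called higher in F1-HHcy and 0 lower, against 1.64% and 1.43% of all genes, with a median log2 difference of 1.62. The 4 were Zar1 (2.62, SE 0.32, adjusted p = 0.0175), Gdf9 (1.85, adjusted p = 0.0388), Rfpl4 (1.84, adjusted p = 0.0303) and Zp3 (1.15, adjusted p = 0.0486), of which the last 3 were named after their values were seen. Zar1, a maternal-effect gene, stood at 7.12, 9.17 and 14.1 FPKM in F1-Control and 86.8, 78.5 and 40.8 FPKM in F1-HHcy at Pd3, so each F1-HHcy ovary library was above each control. Zar1 was not called without F1-Control Pd3 replicate 1 (adjusted p = 0.1101), F1-Control Pd3 replicate 2 (adjusted p = 0.1295) or F1-HHcy Pd3 replicate 2 (adjusted p = 0.0501). Gdf9, Rfpl4 and Zp3 were called only when F1-HHcy Pd3 replicate 3 was left out, and without any other library their adjusted p was between 0.0638 and 0.229. At an unadjusted p under 0.05, 10 of the 13 targets were higher at Pd3 and 2 lower, against 9.78% and 12.6% of all genes. At that age the 6 factors themselves were not called. At Pd7, 2 of 14 targets were called higher and 4 lower, against 5.88% and 5.98% of all genes, with a median of -0.01. Bmp15 was higher by 1.82 (SE 0.23, adjusted p = 0.00300) and, named after their values were seen, Oosp1 by 0.90 (adjusted p = 0.0119). Padi6, the most abundant target, was lower by a difference of -1.34 (SE 0.32, adjusted p = 0.0284), as were, named after their values were seen, Pou5f1 (-1.25, adjusted p = 0.0132), Zp2 (-1.17, adjusted p = 0.0142) and Kit (-0.78, adjusted p = 0.0477). Bmp15 was called without any 1 library, whereas Padi6 was not called without F1-Control Pd7 replicate 2, F1-HHcy Pd7 replicate 1 or F1-HHcy Pd7 replicate 2 (adjusted p = 0.0989, adjusted p = 0.108 and adjusted p = 0.106). Without F1-HHcy Pd7 replicate 1, Oosp1 (adjusted p = 0.0663), Pou5f1 (adjusted p = 0.0505) and Zp2 (adjusted p = 0.0605) were not called. The same held for Pou5f1 without F1-Control Pd7 replicate 2 (adjusted p = 0.0529) and for Zp2 without F1-HHcy Pd7 replicate 2 (adjusted p = 0.0690). Kit was called only when F1-Control Pd7 replicate 3 or F1-HHcy Pd7 replicate 3 was left out, and otherwise its adjusted p was between 0.0894 and 0.165.

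Bmp15 stood at 14.3, 14.8 and 26.3 FPKM in F1-Control Pd7 and at 64.1, 56.1 and 77.3 FPKM in F1-HHcy Pd7, where Figla and Sohlh1 were both lower. In the same libraries Padi6 stood at 541.1, 927.7 and 738.5 FPKM in F1-Control and at 226.0, 210.6 and 472.0 FPKM in F1-HHcy. Reported targets thus lay on both sides of the controls in the ovaries in which 5 of the 6 factors were lower. At Pd21, limma called 0 of 14 targets, against 2.23% of all genes. Of these targets 0 had an unadjusted p under 0.05, against 6.85% of all genes, and the median was 0.18. From Pd3 to Pd7 in F1-Control, 10 of 13 targets were called higher and 1 lower, against 6.9% and 7.59% of all genes. The lower one was Kit (-1.13, adjusted p = 0.00585, named after its values were seen). The median of the targets was 2.08, while 3 of the 6 factors were called lower. In the test of the diet effect at Pd7 minus that at Pd3, 4 of 14 targets were called lower, against 0.357% of all genes, with a median of -1.48. They were Zp2 (-2.31, adjusted p = 0.0192), Zar1 (-2.49, adjusted p = 0.0428), Zp3 (-2.14, adjusted p = 0.0428) and Rfpl4 (-1.93, adjusted p = 0.0484), named after their values were seen except for Zar1. Of the 12 fits that left out a library, Zp2 was not called in 5, Zar1 in 7, Zp3 in 7 and Rfpl4 in 9. Without F1-Control Pd3 replicates 1 or 2, F1-HHcy Pd3 replicate 2 or F1-HHcy Pd7 replicates 1 or 2 none of the 4 was called, with an adjusted p between 0.0583 and 0.148. Among all genes, those fits called 0 of 13899, 0 of 13913, 1 of 13950, 10 of 13873 and 3 of 13879 lower.

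**Figure D5:**
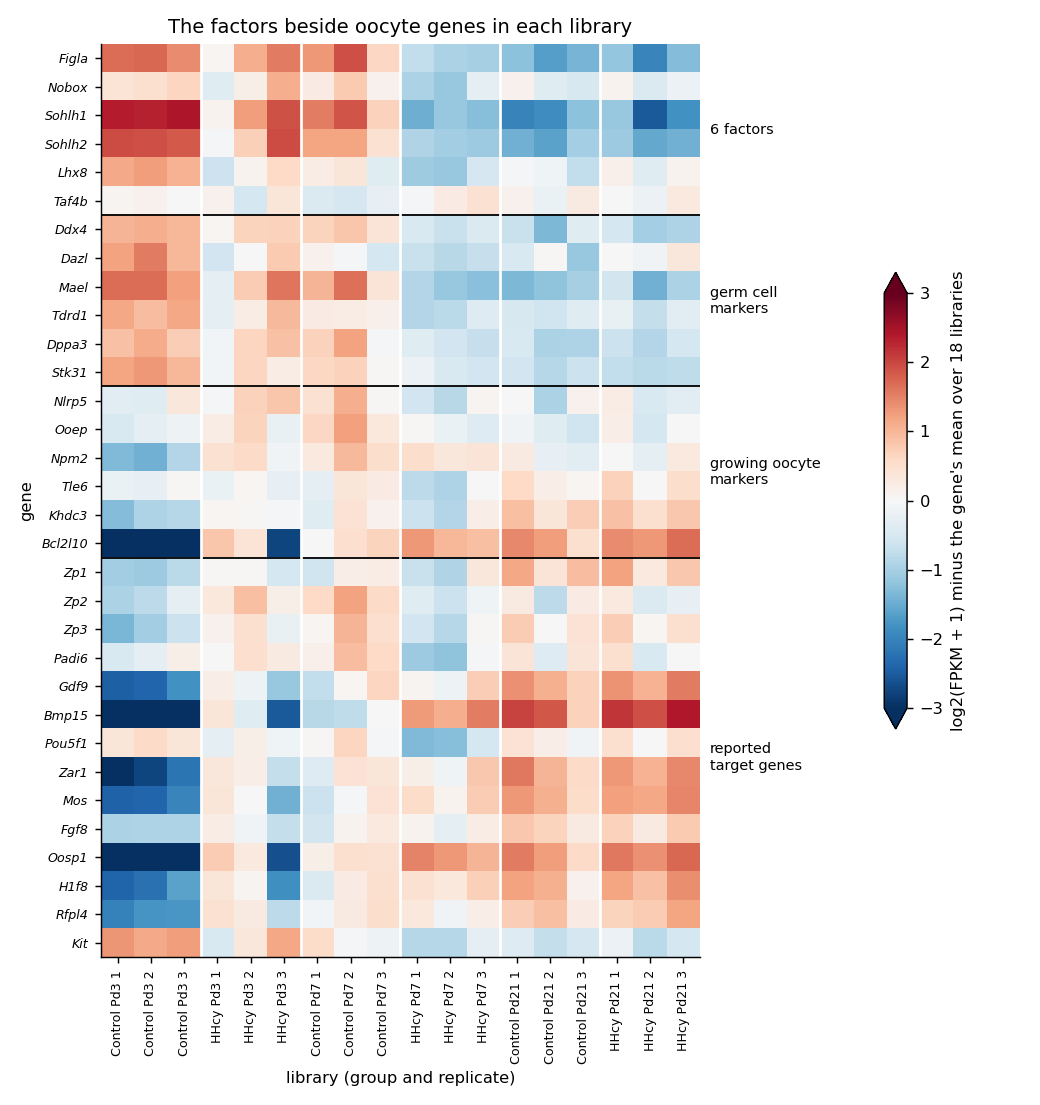
Log2(FPKM + 1) of the 6 genes, germ cell markers, growing oocyte markers and reported target genes (vertical axis) in each of the 18 libraries (horizontal axis), minus the gene's mean over the libraries, with colour at its limit beyond 3 in size. Sohlh1, Lhx8 and Ddx4 have their highest means in F1-Control Pd3, where Bmp15 and Zar1 have their lowest.

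Among the other genes that work with the 6, the dimer partners and LIM cofactors Tcf3, Tcf4, Tcf12, Ldb1 and Ldb2 gave 0 calls by limma on each day. At an unadjusted p under 0.05, 1 of 5 was higher at Pd7, against 15.6% of all genes. This was Ldb1 with a log2 difference of 0.39 (adjusted p = 0.109). Of the other TFIID subunits, 1 of 15 was called at Pd7, a share near the 5.98% of all genes called lower. This was Taf5, which was lower by a difference of -1.23 (SE 0.20, adjusted p = 0.00658). Taf5 stood at 18.8, 19.3 and 12.5 FPKM in F1-Control Pd7 and at 5.83, 5.85 and 8.04 FPKM in F1-HHcy Pd7, the direction opposite to that of Taf4b, and it was called without any 1 library. Taf10, the most abundant subunit, had a log2 difference of -0.68 (adjusted p = 0.0584). Taf4, the general counterpart of Taf4b, had a log2 difference of 0.42 (adjusted p = 0.134) and the ratio of Taf4b to Taf4 was 0.774 ± 0.158 in F1-HHcy Pd7 and 0.652 ± 0.135 in F1-Control Pd7, within the spread of the libraries. At Pd7, 5 of the 15 were lower and 2 higher at an unadjusted p under 0.05, against 15.9% and 15.6% of all genes. At Pd3 and Pd21, limma called 0 of the 15 subunits, against 3.07% and 2.23% of all genes. On those days 3 and 0 had an unadjusted p under 0.05, against 22.4% and 6.85% of all genes.

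Of 5 other regulators of oocyte growth, 4 were called lower at Pd7, against 5.98% of all genes. They were Tbpl2, the oocyte's TBP paralogue (-1.43, SE 0.28, adjusted p = 0.0119), Stat3 (-0.58, adjusted p = 0.0325), Dynll1 (-0.63, adjusted p = 0.0404) and, named after its values were seen, Sub1 (-0.79, adjusted p = 0.0404). Foxo3, also named after its values were seen, was not called. It stood at 22.2, 15.2 and 14.2 FPKM in F1-Control Pd7 and at 15.1, 15.1 and 15.6 FPKM in F1-HHcy Pd7, and the groups overlapped. Tbpl2 stood at 11.4, 14.2 and 6.08 FPKM in F1-Control Pd7 and at 3.08, 2.26 and 4.11 FPKM in F1-HHcy Pd7, without overlap. It was not called without F1-Control Pd7 replicate 2 (adjusted p = 0.0533), and Stat3 was called only when F1-Control Pd7 replicate 2 or F1-Control Pd7 replicate 3 was left out. Dynll1 was called only without F1-Control Pd7 replicate 1 and Sub1 only without F1-Control Pd7 replicate 3, and in the other fits the adjusted p of these 3 genes was between 0.0651 and 0.166. Markers of growing oocytes gave 2 calls of 6 at Pd3, Khdc3 (1.03, adjusted p = 0.0211) and Npm2 (1.53, adjusted p = 0.0214), both higher, against 1.64% of all genes. At Pd7, 1 of 6 was called, against 5.98% of all genes called lower. This was Ooep, the most abundant, which was lower by a difference of -0.90 (adjusted p = 0.0416). On that day 3 of the 6 were lower and 1 higher at an unadjusted p under 0.05, against 15.9% and 15.6% of all genes. The higher one was Bcl2l10, named after its values were seen (0.69, adjusted p = 0.0523, and adjusted p = 0.0329 without F1-Control Pd7 replicate 3). Khdc3 and Npm2 were called only when F1-HHcy Pd3 replicate 3 was left out (adjusted p otherwise from 0.0534 to 0.142), and Ooep only when F1-Control Pd7 replicate 3 was left out (adjusted p otherwise from 0.0702 to 0.125). The summed FPKM of these markers was 484.2, 497.2 and 641.5 in F1-Control Pd3 and 899.5, 1105.5 and 751.6 in F1-HHcy Pd3, so that every sum of F1-HHcy was above every sum of F1-Control. At Pd7 the order of the sums was the reverse, with 959.2, 1484.5 and 966.8 in F1-Control and 832.6, 708.6 and 830.1 in F1-HHcy, again without overlap. Sums weigh the abundant markers most. The mean log2(FPKM + 1) of the same markers overlapped at Pd7, with 6.74, 7.38 and 6.93 in F1-Control and 6.59, 6.37 and 6.81 in F1-HHcy, and did not overlap at Pd3.

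Markers of other cell types also moved with the diet on the days compared. Theca and steroid cell markers were called higher in 7 of 7 at Pd7, against 5.88% of all genes. Cyp17a1 was higher by 5.34 (SE 0.63, adjusted p = 0.00250) and Ptch1 by 1.01 (adjusted p = 0.00336), and Hsd3b1 was the most abundant. Insl3 passed the filter through the 3 F1-HHcy libraries alone, so its call rests on a gene near 0 in the controls. The count was 4 of the 7 without F1-Control Pd7 replicate 2, F1-HHcy Pd7 replicate 1 or F1-HHcy Pd7 replicate 2. In those fits 2.98%, 1.82% and 2.17% of all genes were called higher. At Pd3, 4 of the 7 were tested and 1 was called higher, against 1.64% of all genes. This was Ptch1 (1.25, adjusted p = 0.0320), which was called only when F1-HHcy Pd3 replicate 1 or F1-HHcy Pd3 replicate 3 was left out (adjusted p otherwise from 0.0867 to 0.180). The summed FPKM of the 7 markers was 250.2, 314.0 and 481.2 in F1-Control Pd7 and 1203.5, 1241.2 and 1188.1 in F1-HHcy Pd7. At Pd3 it was 131.3, 111.7 and 168.2 in F1-Control and 732.9, 388.1 and 100.7 in F1-HHcy, in which replicate 3 again lay near the controls, and Insl3 was at 0 in replicate 3 of both groups. Erythroid markers were called lower in 6 of 6 at Pd3 and 5 of 5 at Pd7, against 1.43% and 5.98% of all genes. The count at Pd3 was 0 without F1-Control Pd3 replicate 1 or F1-Control Pd3 replicate 2. In those fits 0 of 13071 and 1 of 13081 genes were called lower. At Pd7 the erythroid count was 0 without F1-Control Pd7 replicate 2, F1-HHcy Pd7 replicate 1 or F1-HHcy Pd7 replicate 3. It was 2 without F1-HHcy Pd7 replicate 2. Of all genes, 2.54%, 1.96%, 3.22% and 2.27% were called lower in those Pd7 fits, in that order. The summed FPKM of the erythroid markers was 11214.3, 6351.8 and 3914.5 in F1-Control Pd3 and 861.7, 1107.5 and 780.3 in F1-HHcy Pd3. At Pd7 it was 5759.6, 1554.9 and 924.9 in F1-Control and 286.7, 501.8 and 429.8 in F1-HHcy. Hbb-bs was the most abundant of them, and none was at 0. The part of these cell types in the levels of the 6 genes was not tested.

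Granulosa cell markers had a median log2 difference of 0.10 at Pd3, where 2 of 7 were called higher, against 1.64% of all genes. They were Amh (3.47, adjusted p = 0.0453) and Inha (1.78, adjusted p = 0.0338). At an unadjusted p under 0.05, 3 of the 7 were higher on that day and 1 was lower, against 9.78% and 12.6% of all genes. The lower one was Kitl, named after its values were seen (-0.55, adjusted p = 0.0642, and adjusted p = 0.0315 without F1-HHcy Pd3 replicate 3). At Pd7, 2 of 8 were called higher, against 5.88% of all genes. They were Inha (1.40, adjusted p = 0.0497) and, named after its values were seen, Nr5a2 (1.52, adjusted p = 0.0363). At Pd3, Amh was called only when F1-HHcy Pd3 replicate 3 was left out (adjusted p otherwise from 0.0565 to 0.221), and Inha only without F1-HHcy Pd3 replicate 1 or F1-HHcy Pd3 replicate 3 (adjusted p otherwise from 0.0881 to 0.188). At Pd7, Inha was called only without F1-Control Pd7 replicate 3 (adjusted p otherwise from 0.0830 to 0.164), and Nr5a2 only without F1-Control Pd7 replicate 3 or F1-HHcy Pd7 replicate 2 (adjusted p otherwise from 0.0594 to 0.138). Their summed FPKM was 336.8, 318.8 and 578.4 in F1-Control Pd7 and 622.7, 590.5 and 934.7 in F1-HHcy Pd7, with Inha the most abundant and none at 0. At Pd21, 3 of 6 markers of the oviduct and surface epithelium were called lower, against 2.23% of all genes. They were Foxj1 (-5.14, adjusted p = 0.00201), Ovgp1 (-6.13, adjusted p = 0.00541) and, named after its values were seen, Pax8 (-2.36, adjusted p = 0.0149). The summed FPKM of the 6 was 542.9, 216.3 and 674.3 in F1-Control and 115.5, 69.6 and 118.7 in F1-HHcy. Ovgp1 was not called without F1-Control Pd21 replicate 1 (adjusted p = 0.127) or F1-Control Pd21 replicate 3 (adjusted p = 0.109). Foxj1 and Pax8 passed the filter through the 3 control libraries alone, and with no filter Foxj1 (adjusted p = 0.0553), Ovgp1 (adjusted p = 0.0927) and Pax8 (adjusted p = 0.142) were not called. Without a control library of Pd21, Foxj1 and Pax8 were not tested, and without F1-HHcy Pd21 replicate 1, 2 or 3 Foxj1 was called and Pax8 was not (adjusted p = 0.0613, adjusted p = 0.0516 and adjusted p = 0.0596). The most abundant of that list was Upk3b and none was at 0. The 6 genes gave 0 calls on that day, and the part of these tissues was not tested.

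On the day of the calls of the 6 genes, Pd7, oviduct and surface epithelium markers had a median log2 difference of -1.04, beside -1.03 for the germ cell markers. Of the 5 tested, 3 were also called lower, against 5.98% of all genes. They were, named after their values were seen, Epcam (-1.57, adjusted p = 0.00646), Krt8 (-1.38, adjusted p = 0.00605) and Pax8 (-1.04, adjusted p = 0.0145). Epcam and Krt8 were called without any 1 library, and Pax8 was not called without F1-HHcy Pd7 replicate 2 (adjusted p = 0.0537) or F1-HHcy Pd7 replicate 3 (adjusted p = 0.0596). Without F1-HHcy Pd7 replicate 1, Pax8 was called but passed the filter through the 3 control libraries alone. The summed FPKM of this list was 325.5, 332.2 and 224.4 in F1-Control Pd7 and 175.5, 224.9 and 107.3 in F1-HHcy Pd7, so the sums overlapped. One of the 5, Ovgp1, went the other way at an unadjusted p under 0.05, against 15.6% of all genes higher. Its log2 difference was 1.22 (adjusted p = 0.146), and it was 0.44 without F1-HHcy Pd7 replicate 1. Of the endothelial markers 1 of 5 was called higher, Tie1 (0.62, adjusted p = 0.0335), of the adipocyte markers 1 of 3 was called higher, Plin1 (1.64, adjusted p = 0.00268), and of the immune markers 1 of 4 was called lower, S100a8 (-3.77, adjusted p = 0.0362). Of all genes, 5.88% were called higher and 5.98% lower on that day. Plin1 was called without any 1 library. Without F1-Control Pd7 replicate 3, however, Plin1 passed the filter through the 3 F1-HHcy libraries alone. Tie1 was called only when F1-Control Pd7 replicate 3 was left out (adjusted p otherwise from 0.0559 to 0.142), and S100a8 only without F1-Control Pd7 replicate 2 or F1-HHcy Pd7 replicate 3 (adjusted p otherwise from 0.0566 to 0.1003). Without F1-HHcy Pd7 replicate 3, however, S100a8 passed the filter through the 3 control libraries alone. Limma called 0 of 4 smooth muscle markers, of which 1 was higher at an unadjusted p under 0.05, against 15.6% of all genes. The part of these tissues at Pd7 was not tested.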

How the data were processed

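Whole ovaries of F1 mice were measured by poly-A RNA sequencing in 18 libraries, 3 for each diet of the dam and day. The submitters' notes name FastQC 0.11.9, Trimmomatic 0.39, STAR 2.7.9a, featureCounts 2.0.1 and DESeq2 1.36.0. The files of the authors hold a deposited value for each symbol and name no unit. They were taken to be FPKM (the authors' deposited scale), as a length for each gene and a factor for each library made whole fragments of 100% of them within 0.05. Depth was 33630641 to 39399281 fragments per library. Groups were taken from the labels, and no library was left out.

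Genes that reached 1 FPKM in 3 or more libraries of a fit were tested on log2(FPKM + 1) by limma 3.58.1, run under R 4.3.3, with a mean-dependent prior variance and 2-sided p-values adjusted by the Benjamini-Hochberg method over all genes tested. The test was tried on simulated data. The tests compared the diets on each day, Pd3 with Pd7 within each diet, and the diet effects of 2 days. For Pd21 minus Pd7 the main fit held all 18 libraries, with an alternative on the 12 libraries of Pd7 and Pd21. Alternatives were a pseudocount of 0.1, no filter, a model of all 18 libraries, the replicate number as a block, an unadjusted p under 0.05 with a log2 size above 0.58, median-ratio scaling and leaving out each library in turn, with limma-voom on recovered fragments added after seeing the data.

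The 6 genes and the lists were chosen with earlier results of these data known. Named genes are the 6, the most abundant gene of a list and the 2 with the smallest p on a day, and the 5 genes with the highest correlation to each of the 6. Other genes of a list were named after their values were seen, where a count was 5 or fewer. Gene models came from GENCODE M21, promoters from RefSeq GRCm38.p6. Python 3.11.15 with pandas 2.3.3 and numpy 2.4.6 made the tables, and matplotlib 3.10.9 drew the figures.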

Additional observations from a re-analysis of the deposited data

Results flagged for a closer look

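The diet effect differed between Pd7 and Pd21 by a test of the difference itself for 3 of the 6 genes. Of all genes, 0.986% were called with a higher diet effect at Pd21. The effect at Pd21 minus that at Pd7, on the log2(FPKM + 1) scale, was 2.53 for Sohlh1, 2.11 for Figla and 1.94 for Sohlh2. Age and batch cannot be told apart in these differences. Sohlh2 did not pass the filter at Pd21 alone, its values there were near or below 1 FPKM, and its call was lost with no filter. With limma-voom, added after seeing the data, 0 of the 3 were called, against 0.253% of all genes called higher.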

How the results depend on the processing

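The 5 lower levels and the 1 higher level at Pd7 kept their direction under every alternative. Their count of 6 was 2 with no filter (0.105% of all genes were called lower), where Figla (adjusted p = 0.0558), Nobox (adjusted p = 0.0969), Lhx8 (adjusted p = 0.118) and Taf4b (adjusted p = 0.131) were no longer called, and 3 to 6 when a library was left out. Taf4b was also not called with a pseudocount of 0.1 (adjusted p = 0.0517) or with all 18 libraries in 1 model (adjusted p = 0.0630). The count at Pd3 was 1 with all 18 libraries (2.9% of all genes lower), 3 by the unadjusted rule with a log2 size above 0.58 (4.74%), and 0 to 5 with a library left out. The count from Pd3 to Pd7 in F1-Control was 1 with no filter, 1 with all 18 libraries, and 1 to 3 with a library left out, and in F1-HHcy it was 4 with all 18 libraries (3.18%), 5 by the unadjusted rule (5.36%), and 0 to 5 with a library left out. With limma-voom Taf4b was called in F1-Control (adjusted p = 0.0418), and with median-ratio scaling Sohlh1 was not called in F1-Control (adjusted p = 0.0555). The count for the diet effect at Pd7 minus Pd3 was 4 by the unadjusted rule (11.6% of all genes). It was 0 to 2 with a library left out, and without F1-Control Pd3 replicate 1 or 2 no gene at all was called. For Pd21 minus Pd7 the count was 6 by the unadjusted rule, 5 higher and 1 lower (5.55% and 9.72% of all genes). It was 0 with limma-voom (0.253% called higher), and 1 to 5 with a library left out. With only the 12 libraries of Pd7 and Pd21 it was 3, against 1.12% of all genes called higher. Fits that left out a library kept at least 2 libraries per group. For Pd21 minus Pd7, Sohlh2 was also not called with no filter (adjusted p = 0.0845). With no filter, the genes of other lists that the text names as called were no longer called, except Ptch1 at Pd7 and Kit in F1-Control from Pd3 to Pd7. Examples were Ddx4 (adjusted p = 0.0502) and Bmp15 (adjusted p = 0.0545) at Pd7. Among all genes, the fits with no filter called 0 of 27825 at Pd3. They called 0.224% higher and 0.105% lower at Pd7, and 0.133% lower at Pd21. With the replicate number as a block, the 9 calls named at Pd3 were lost, as were those of Zar1, Zp3 and Rfpl4 for Pd7 minus Pd3. That block left 1 of all 13277 genes called at Pd3. For Pd7 minus Pd3 it called 0.1% of all genes higher and 0.186% lower. At Pd7, Kit and Inha were also not called with a pseudocount of 0.1 or limma-voom, Kit, Stat3, Oosp1 and Pax8 with all 18 libraries, Inha, Dynll1, Sub1 and Ooep with median-ratio scaling, Stat3 by the unadjusted rule, and S100a8 with limma-voom. With limma-voom Rfpl4 and Amh at Pd3 and Zar1 and Rfpl4 for Pd7 minus Pd3 were not called. The causes were not tested.

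Some of the differences that were not called changed sign when a library was left out. These ranged at Pd3 from -0.60 to 0.12 for Nobox and from -0.27 to 0.17 for Taf4b. At Pd21 they ranged from -0.22 to 0.18 for Figla, from -0.068 to 0.26 for Nobox, from -0.47 to 0.22 for Sohlh1 and from -0.15 to 0.088 for Taf4b, which was 0.0021 with median-ratio scaling. From Pd3 to Pd7 they ranged in F1-Control from -0.65 to 0.0075 for Figla and from -0.31 to 0.012 for Nobox, in F1-HHcy from -0.022 to 0.42 for Taf4b, and for Lhx8 the diet effect at Pd7 minus Pd3 ranged from -0.18 to 0.43.

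The replicate numbers did not pair the diets, since the correlations of same-numbered libraries for replicates 1, 2 and 3 were -0.12, -0.13 and -0.18 at Pd3. On the later days they were 0.046, -0.10 and 0.085 (Pd7) and -0.17, -0.13 and -0.31 (Pd21). With the replicate number as a block, 0 of the 6 genes were called at Pd3, where 1 of all 13277 genes was called. At Pd7 the block called all 6, against 7.18% of all genes called higher and 6.91% called lower. Without the filter, Sohlh2 at Pd21 had a log2 difference of -0.0024 with 30 to 92 fragments per library, so depth limits that value. Pups per library are not given.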
